A study of Mus musculus with 24 samples.

Results

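A group of 7 transcripts, 5 nuclear copies of mitochondrial genes and 2 Y RNAs, was followed in 2 brain regions of the reward system, the nucleus accumbens and the VTA (ventral tegmental area). They are Gm10925 (ENSMUSG00000100862.1), Gm28439 (ENSMUSG00000100131.1), Gm28437 (ENSMUSG00000101111.1), Gm29216 (ENSMUSG00000101249.1), Gm28661 (ENSMUSG00000102070.1), Rny1 (ENSMUSG00000065701.1) and Rny3 (ENSMUSG00000064945.1), 7 of the 30270 gene identifiers in the tables, and all 7 were found. They were chosen on their measured values in morphine against PBS, so in that contrast their values are described and no test is given. The study injected wild-type and Vdr-/- mice of the C57BL/6 background, the latter lacking the vitamin D receptor in the whole body, with PBS or with morphine sulfate at 5 mg/kg, and sequenced micropunches of both regions. Its methods give a diet with extra calcium for Vdr-/- mice, so diet may differ with genotype. The 24 libraries fall into 8 groups of 3 mice, and each mouse gave 1 library per region. By their labels, mice 1, 2 and 3 (wild-type) and 7, 8 and 9 (Vdr-/-) received PBS. Mice 1.0, 1.1 and 1.2 (wild-type) and 2.0, 2.1 and 2.2 (Vdr-/-) received morphine, and values below keep this order. The main text of the study gives tissue collection at 90 min after either injection, whereas its tissue methods give 60 min for saline, so the time after injection may differ between the injections. All values come from frozen bulk tissue, in which fewer cells of a type and less RNA per cell cannot be told apart.

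The mitochondrial genome is a small circle that encodes core subunits of the respiratory chain and of ATP synthase, with the ribosomal and transfer RNAs to translate them. Stretches of it have been inserted into the chromosomes over evolution, and such nuclear copies can be so like their source that a sequencing read may align equally well to both. Y RNAs are short noncoding RNAs made by RNA polymerase III, folded into a stem and loop and bound by the Ro60 and La proteins, with known roles in RNA quality control and in the start of DNA replication.

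The 5 copies lie in 1 block on chromosome 1 of GRCm38, from 24611535 to 24616197 on the minus strand (GENCODE M21), where 7 unprocessed pseudogenes are annotated in 4663 bases. Gm29216 (24615706 to 24616197) aligned to the last 483 bases of mt-Co1, which encodes a cytochrome c oxidase subunit, with 99.8% identity. Gm28661 (24614885 to 24615565) matched mt-Co2, a further cytochrome c oxidase subunit, over 681 bases with 100% identity. Gm10925 (24613974 to 24614651) matched mt-Atp6, an ATP synthase subunit, over 678 bases with 100% identity. Gm28437 (24613189 to 24613971) matched mt-Co3 over 783 bases and Gm28439 (24611535 to 24612410) the first 876 of the 1378 bases of mt-Nd4, a subunit of complex I, both with 100% identity. The remaining annotated pseudogenes of the block are Gm10222, a copy of mt-Nd4l, and Gm28438, a copy of mt-Nd3, which are not among the 7. Every stretch of 101 bases, the length of a read, in Gm10925, Gm28437, Gm28439 and Gm28661 also occurs in a mitochondrial transcript. In Gm29216 this held for 96.7% of such stretches.

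The start of Gm10925 is shown with that of mt-Atp6 because the transcripts cannot be told apart there. Capitals mark the 43 bases that are also the end of mt-Atp8, which overlaps mt-Atp6.
Gm10925: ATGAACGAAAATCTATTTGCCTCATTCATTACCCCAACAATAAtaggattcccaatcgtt
mt-Atp6: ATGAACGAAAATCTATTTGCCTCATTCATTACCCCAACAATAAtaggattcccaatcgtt

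Gm29216 is shown because it holds the only difference found between the aligned parts of the 5 copies and their mitochondrial genes, A13T, with the mitochondrial base first and the position counted from 1 at the 5′ end of the copy. The base is in capitals in both sequences.
Gm29216: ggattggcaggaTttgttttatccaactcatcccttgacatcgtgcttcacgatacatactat
mt-Co1: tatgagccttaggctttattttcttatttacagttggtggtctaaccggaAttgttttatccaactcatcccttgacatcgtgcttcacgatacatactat

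Both Y RNA genes lie on chromosome 6, Rny3 at 47781624 to 47781725 on the plus strand and Rny1 at 47788069 to 47788180 on the minus strand, with 6343 bases between them. The transcripts are 102 and 112 bases long and had the same base at 81 of 112 aligned positions (72.3%). Both are shown whole, as DNA letters, so that they can be compared. Capitals mark GGTCCGA, which was searched on both strands of the 7238 annotated transcripts under 200 bases and was present in 16 of them (0.221%).
Rny1: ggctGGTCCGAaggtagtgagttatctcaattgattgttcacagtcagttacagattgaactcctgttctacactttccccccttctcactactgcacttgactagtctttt
Rny3: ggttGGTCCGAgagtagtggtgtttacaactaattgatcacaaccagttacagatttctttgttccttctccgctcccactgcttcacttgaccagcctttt

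The motif starts at base 5 of both and each ends in a run of 4 T. Rny1 shared words of 25 bases with 2 other annotated genes, Gm26124 and Gm26168, and Rny3 shared none. Reads that map to more than 1 place were left out of the counts. Whether whole reads of Rny1 fit those genes was not tested.

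The deposited values are normalized counts, from which whole reads were recovered. Reads on genes ranged from 11628895 to 30184426 in the PBS libraries (median 18567493) and from 9328726 to 19363222 in the morphine libraries (median 16142745). In the sample descriptions, all 12 PBS libraries carry a name prefix that 0 of the 12 morphine libraries carry, so injection cannot be told apart from any difference in preparation or sequencing that goes with this naming. Vdr held 0 to 17 reads per library and was not lower in Vdr-/- libraries, so the genotypes rest on the labels. The 6 medium spiny neuron markers summed to 1947 to 2543 CPM (reads per 1000000 reads on genes) in nucleus accumbens libraries with PBS and 1255 to 1769 with morphine. The 6 dopamine neuron markers summed to 309 to 2325 in VTA libraries with PBS and 91.9 to 838 with morphine, and the 5 oligodendrocyte markers to 11197 to 12425 and 5782 to 9529. The 4 microglial markers summed to 194 to 231 and 160 to 226 in nucleus accumbens and VTA libraries with PBS, and to 159 to 179 and 113 to 145 with morphine. The 5 choroid plexus markers summed to 20.2 to 30.3 and 8.45 to 12.2 with PBS, and to 29.4 to 37.1 and 6.27 to 129 with morphine. No defining list was absent from its region, but these lists moved with injection too, and their part in the values that follow was not tested.

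The copies were read at a low and even level after PBS and at a higher level in every morphine library. Gm10925, the copy of mt-Atp6, had 52, 40 and 65 reads in the nucleus accumbens of wild-type mice given PBS and 1520, 714 and 442 after morphine. In Vdr-/- mice it had 58, 64 and 42 reads after PBS and 294, 1022 and 548 after morphine. In the VTA the wild-type values were 67, 44 and 62 after PBS and 903, 837 and 413 after morphine, and the Vdr-/- values were 55, 28 and 70 after PBS and 258, 924 and 928 after morphine. No morphine library overlapped a PBS library in any of the 4 pairs of groups. With reads pooled within a group and scaled to reads on genes, Gm10925 was 20.4-fold higher after morphine in the wild-type nucleus accumbens (95% exact counting interval 17.3 to 24.1), 14.6-fold (12.4 to 17.2) in the Vdr-/- nucleus accumbens, 16.1-fold (13.8 to 18.9) in the wild-type VTA and 17.3-fold (14.7 to 20.6) in the Vdr-/- VTA. These intervals cover counting error only and not the spread between mice, which was wide: the group means were 58.4 ± 28.5, 44.8 ± 22, 42.1 ± 11.8 and 43.9 ± 24.6 CPM after morphine (SD, n = 3) against 3.08 ± 0.398, 3.03 ± 0.782, 2.65 ± 0.215 and 2.54 ± 0.447 after PBS.

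Gm28439, the copy of mt-Nd4, had the lowest level of the 5 after PBS, with 16 to 46 reads per library, and 144 to 783 reads after morphine. In the wild-type nucleus accumbens the reads were 46, 23 and 38 after PBS and 783, 406 and 225 after morphine, and in the Vdr-/- nucleus accumbens 42, 30 and 38 and 144, 514 and 305. In the VTA they were 35, 23 and 36 and then 503, 503 and 237 in wild-type mice, and 21, 16 and 38 and then 162, 526 and 478 in Vdr-/- mice. Its pooled ratio of morphine to PBS was 15.8 (12.98 to 19.4) and 11.2 (9.22 to 13.8) in the nucleus accumbens of wild-type and Vdr-/- mice and 17.1 (13.9 to 21.3) and 19.5 (15.5 to 25.03) in the VTA.

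The copies of the 3 cytochrome c oxidase genes had smaller ratios in each pair of groups. Gm29216 had 29 to 91 reads in the PBS libraries and 142 to 897 in the morphine libraries, with pooled ratios between 8.27 in the Vdr-/- nucleus accumbens and 12.2 in the wild-type VTA. Gm28661 had 38 to 78 and 139 to 839 reads, with ratios between 7.42 and 9.97. Gm28437 had 34 to 80 and 148 to 733 reads, with ratios between 7.41 and 11.3. The lowest morphine library lay above the highest PBS library of its own pair of groups for all 5 copies. The smallest such gap, of 2.81-fold, was that of Gm28661 in the VTA of Vdr-/- mice. The same order of groups, every morphine library above every PBS library, was met by 12.3% of the 15749 genes tested in the wild-type nucleus accumbens and 18.5% of 15820 in the Vdr-/- nucleus accumbens. In the VTA, where the deposited tables hold 2 PBS mice per genotype, it was met by 21.3% of 16187 genes in wild-type and 23.7% of 16364 in Vdr-/- mice. Nothing is read from this for the 7 transcripts, since the contrast chose them.

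**Figure D1:**
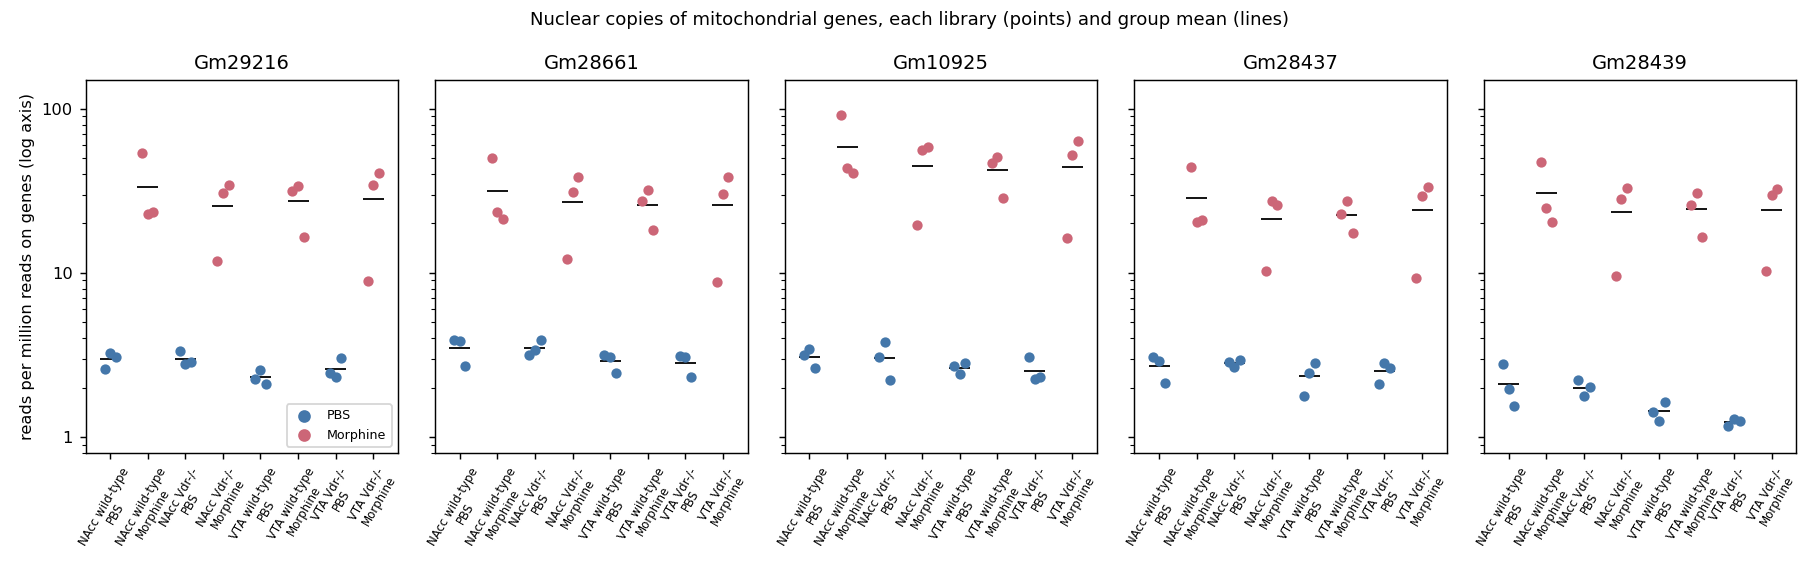
CPM (log axis) of the 5 copies, with 1 point per library, a line at each group mean, blue for PBS and red for morphine, and 3 mice per group. All PBS points lie between 1.17 and 3.91, and all morphine points between 8.76 and 91.3.

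The Y RNAs were close to absent after PBS. Rny1 had 0, 2 and 1 reads in the nucleus accumbens of wild-type mice given PBS and 148, 45 and 20 after morphine, and 2, 2 and 1 reads and then 18, 104 and 68 in Vdr-/- mice. In the VTA it had 0, 1 and 6 reads after PBS and 126, 76 and 59 after morphine in wild-type mice, and 2, 1 and 2 reads and then 20, 213 and 213 in Vdr-/- mice. The groups did not overlap, and Vdr-/- mouse 2.0 was the lowest morphine animal in both regions. Pooled over 3 mice, Rny1 was 84.9-fold higher after morphine in the wild-type nucleus accumbens, where PBS gave 3 reads in all (95% exact counting interval 28.7 to 415), 48.8-fold (20.6 to 152) in the Vdr-/- nucleus accumbens, 48.2-fold (23.1 to 121) in the wild-type VTA and 112-fold (47.7 to 347) in the Vdr-/- VTA.

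Rny3 had 0, 2 and 1 reads after PBS and 196, 48 and 26 after morphine in the wild-type nucleus accumbens, and 0, 0 and 2 and then 18, 134 and 90 in the Vdr-/- nucleus accumbens. In the VTA it had 1, 0 and 0 reads after PBS and 171, 89 and 79 after morphine in wild-type mice, and 0, 1 and 0 and then 35, 322 and 252 in Vdr-/- mice. It was not read at all in 7 of 12 PBS libraries, and a count of 0 allows up to 3 reads in a library. The pooled ratios were 108 (36.4 to 525) and 155 (42.6 to 1291) in the wild-type and Vdr-/- nucleus accumbens. In the VTA, where each PBS group held 1 read, they were 438 (78.1 to 17362) in wild-type and 766 (137 to 30292) in Vdr-/- mice, and such intervals say little about the size of the ratio. Both Y RNAs passed the filter of a mean value of 10 in the morphine comparisons through their morphine libraries alone.

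**Figure D2:**
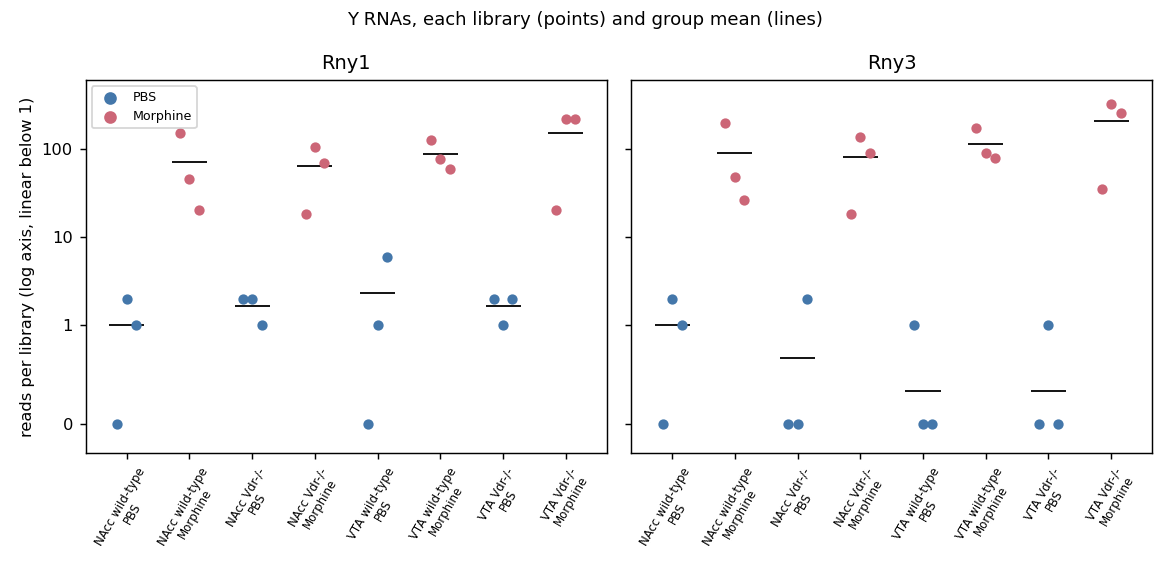
Reads per library of Rny1 and Rny3 on a log axis that is linear below 1, with 1 point per library, a line at each group mean, blue for PBS and red for morphine, and 3 mice per group. PBS libraries had 0 to 6 reads of Rny1 and 0 to 2 of Rny3, and morphine libraries 18 to 213 and 18 to 322.

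Rny3 made up 50% to 63.6% of the reads of both Y RNAs in the morphine libraries, and 56.8% of 2570 reads pooled (95% exact binomial interval 54.9 to 58.7). After PBS, 7 of 27 reads were of Rny3, or 25.9% (11.1 to 46.3), and the share in single libraries ran from 0% to 100% (median 0%), so it overlapped that after morphine. These intervals cover counting error only. On a scale of CPM divided by transcript length in kilobases, the median levels over the 12 PBS libraries rose in the order Rny3 (0), Rny1 (0.655), Gm28439 (1.82), Gm28437 (3.499), Gm10925 (4.09), Gm28661 (4.61) and Gm29216 (5.47). Neighbours in this order had overlapping ranges over the libraries. Over the 12 morphine libraries the order was Gm28439 (31.0), Gm28437 (31.2), Gm28661 (42.4), Rny1 (46.2), Gm29216 (63.0), Rny3 (63.1) and Gm10925 (72.0), and again all neighbours overlapped.

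The make-up of the reads on the copies differed between the injections too. Gm10925 took 15.9% to 26.3% of the reads on the 5 copies in the PBS libraries and 29.2% to 32.4% in the morphine libraries. Pooled, its share was 21.7% of 2980 reads (20.2 to 23.2, exact binomial) and 30.8% of 28539 reads (30.3 to 31.4). These intervals cover counting error only, not the spread between mice. The pooled share of Gm28439 was 12.95% after PBS and 16.8% after morphine, and those of Gm28661, Gm28437 and Gm29216 were lower after morphine, but the libraries of the 2 injections overlapped for each of these 4. Gm28439, for example, took 9.81% to 17.97% in PBS libraries and 15.1% to 19.1% in morphine libraries. Among the morphine libraries the share of Gm10925 was 30.8% to 32.4% in the nucleus accumbens and 29.2% to 30.4% in the VTA, with no overlap between the regions, while the genotypes overlapped.

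**Figure D3:**
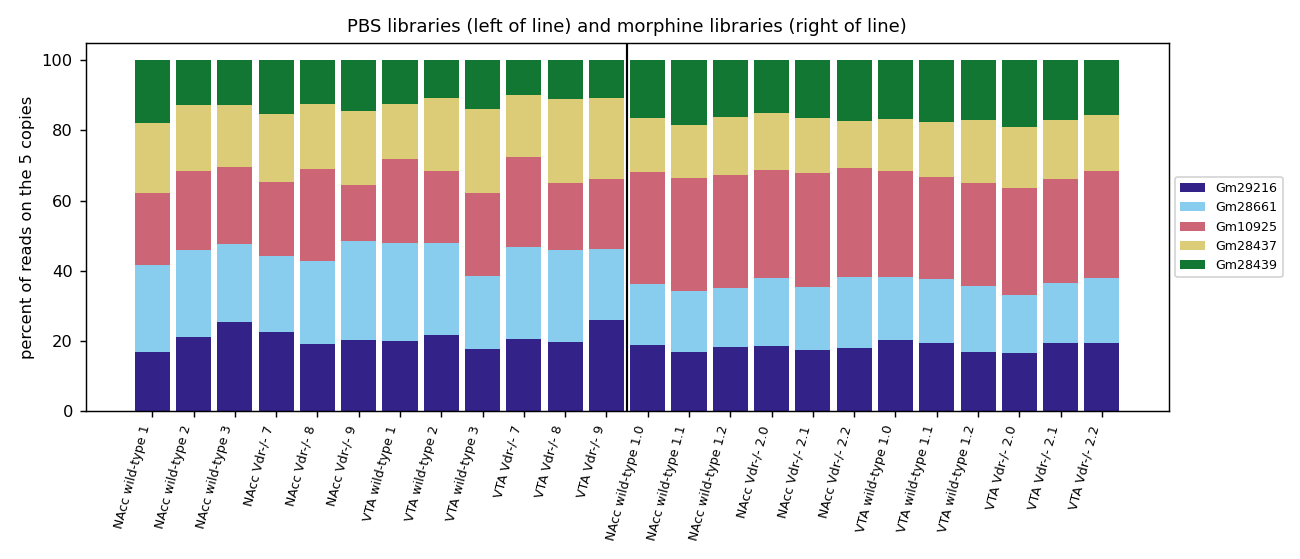
Percent of the reads on the 5 copies that each copy took, 1 bar per library, PBS libraries left of the line and morphine libraries right of it. The band of Gm10925 is 15.9% to 26.3% high in PBS bars and 29.2% to 32.4% in morphine bars.

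The mitochondrial genes themselves were read at very unequal levels. In the PBS libraries mt-Co2, mt-Atp6 and mt-Co3, which have a copy of nearly their whole length in the block, had medians of 1.42, 1.26 and 1.87 CPM, whereas mt-Co1, mt-Nd4, mt-Nd1 and mt-Cytb had medians of 17983, 4576, 6183 and 8909. The authors' counting leaves out reads that map to more than 1 place, so the reads on a copy and on its identical mitochondrial gene are both what remained after that step. mt-Co2, mt-Atp8, mt-Atp6, mt-Co3 and mt-Nd4l rose after morphine in all 4 comparisons, 5 of 13 mitochondrial protein-coding genes tested in each (limma with Benjamini-Hochberg adjustment over all genes). They share sequence with the block of copies or lie beside genes that do, so their values are not independent of those the copies were chosen on. Their differences are therefore given without a p. mt-Nd4l in all 4 comparisons and mt-Atp8 in the Vdr-/- VTA were above the filter through their morphine libraries alone, so these counts are descriptions. mt-Co2 rose by a log2 difference of 2.62 ± 0.36 (SE) in the wild-type and 2.53 ± 0.36 in the Vdr-/- nucleus accumbens, and by 3.00 ± 0.27 and 3.12 ± 0.56 in the VTA. Among the others, mt-Atp8, which encodes a further ATP synthase subunit, had a difference of 3.71 ± 0.47 in the Vdr-/- VTA, and mt-Nd4l, of complex I, had 2.95 ± 0.32 in the wild-type nucleus accumbens. mt-Atp6 rose by 3.15 ± 0.42 in the wild-type VTA. mt-Nd3, also copied nearly whole in the block, had differences of 0.41 to 1.01 and did not pass.

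The remaining 7 mitochondrial protein-coding genes had small negative differences, of which few passed here and more passed in the VTA under other settings. In the Vdr-/- nucleus accumbens mt-Nd6, mt-Nd1 and mt-Nd5 fell, by 0.37, 0.31 and 0.29 on the log2 scale, and in the Vdr-/- VTA mt-Nd1 and mt-Nd5 fell, by 0.45 and 0.43. In wild-type mice 0 of 13 passed as lower in these fits in either region, against 4 in the VTA with DESeq2. The median log2 difference of the 13 was -0.18 and -0.16 in the nucleus accumbens of wild-type and Vdr-/- mice and -0.27 and -0.095 in the VTA, beside medians of 0.0075, -0.0065, -0.0050 and -0.0018 over all genes tested. Over all genes, 0.813% were called in either direction in the wild-type nucleus accumbens, 19.1% in the Vdr-/- nucleus accumbens, 3.65% in the wild-type VTA and 10% in the Vdr-/- VTA. The calls among the 13 genes depended on single libraries. In the wild-type nucleus accumbens 0 of the 13 passed without PBS mouse 1 or 3 or morphine mouse 1.1 or 1.2, and 3 without morphine mouse 1.0. In the Vdr-/- nucleus accumbens 5 passed in place of 8 without morphine mouse 2.1. In the wild-type VTA 0 passed without PBS mouse 1 or 2 and 3 without morphine mouse 1.2. In the Vdr-/- VTA the count of 7 became 0 without PBS mouse 7, 2 when PBS mouse 9 or morphine mouse 2.1 was left out, 1 in the absence of mouse 2.2 and 11 in that of mouse 2.0.

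**Figure D4:**
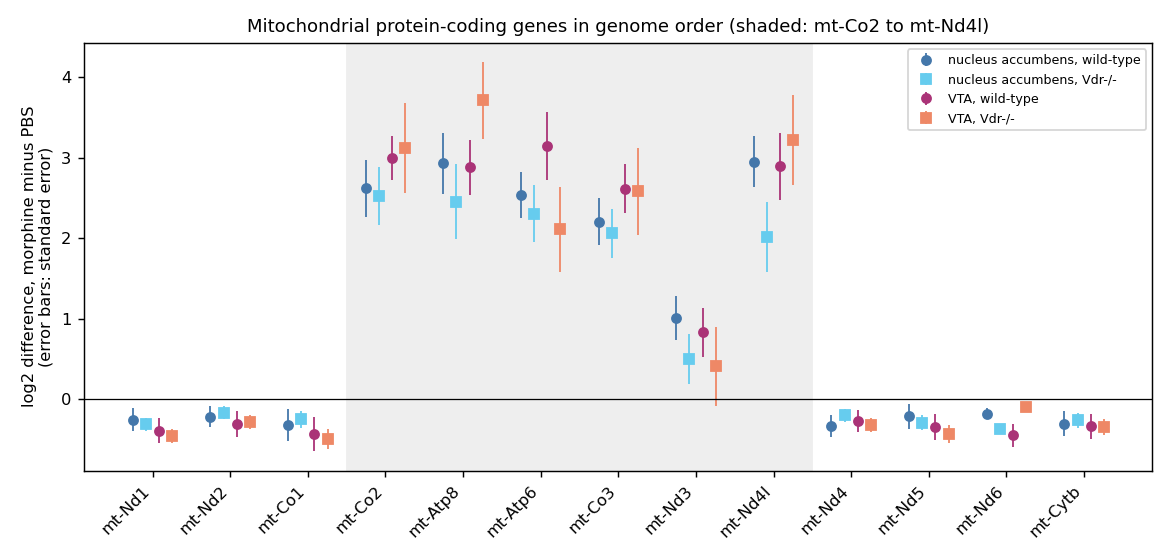
Difference of log2(value + 1) between morphine and PBS for the 13 mitochondrial protein-coding genes in genome order, with standard errors from limma and 1 symbol for each region and genotype. The shaded genes, mt-Co2 to mt-Nd4l, lie above 0, and the others between -0.49 and -0.095.

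The ratio of reads on a copy to reads on its mitochondrial gene varied from library to library. Gm10925 had a median of 2.14 reads per read of mt-Atp6 over the PBS libraries (range 1.62 to 5.58) and 6.21 over the morphine libraries (4.98 to 7.03). Gm28437 had 1.45 per read of mt-Co3 after PBS (0.852 to 2.14) and 2.31 after morphine (2.03 to 2.96), and Gm28661 had 2.13 (1.38 to 2.92) and 2.30 (2.04 to 2.83) per read of mt-Co2. The ranges overlap between the injections for these 3 pairs, and for Gm10222 per read of mt-Nd4l (0.182 to 3 and 1.33 to 2.67). They did not overlap for Gm28438 per read of mt-Nd3 (0.222 to 0.611 after PBS and 1.10 to 2.18 after morphine). Gm28439 per read of mt-Nd4 did not overlap either (0.000252 to 0.000579 and 0.00222 to 0.0106). The same held for Gm29216 per read of mt-Co1 (0.000115 to 0.000204 and 0.000609 to 0.00329). Gm28439 and Gm29216 cover only part of their genes. Set against all reads on the mitochondrial genome, the 5 copies had 231 ± 37.3 reads per 1000000 reads on mitochondrial genes in the wild-type nucleus accumbens after PBS and 3346 ± 1425 after morphine (SD, n = 3), and 247 ± 19.0 and 2704 ± 1366 in Vdr-/- mice. In the VTA the values were 188 ± 12.1 and 2768 ± 774 in wild-type and 193 ± 13.8 and 2736 ± 1509 in Vdr-/- mice. Mitochondrial genes held 5.53% to 7.03% of all reads on genes in PBS libraries and 4.78% to 5.74% in morphine libraries.

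Other nuclear copies of mitochondrial sequence were higher after morphine too. Gm10222 had 1 to 9 reads in PBS libraries and 37 to 170 in morphine libraries, and Gm28438 had 4 to 11 and 20 to 78. Of the other mitochondrial pseudogenes, 7 of the 10 in the files were tested in each comparison, and 5, 5, 6 and 4 of them rose in the wild-type nucleus accumbens, the Vdr-/- nucleus accumbens, the wild-type VTA and the Vdr-/- VTA, with 0 lower. The 3 with the widest differences among those that passed were Gm10222, Gm28438 and Gm4076 in each comparison, with log2 differences of 2.21 to 4.20. Gm10222 and Gm28438, and Gm4076 in all but the Vdr-/- nucleus accumbens, were above the filter through their morphine libraries alone, so the counts and the medians, between 2.01 and 2.16 on the log2 scale, are descriptions. The list was drawn by alignment to mitochondrial transcripts, and Gm10222 and Gm28438 lie in the block of the copies. Its values are therefore not independent of those the copies were chosen on. The 26 nuclear genes of mitochondrial transcription and RNA handling that were tested gave 1 higher and 1 lower in the Vdr-/- nucleus accumbens, Fastkd5 (0.56 on the log2 scale, adjusted p = 0.035) and Ssbp1, the mitochondrial single-stranded DNA-binding protein (fell by 0.35, adjusted p = 0.016), and 0 in the other 3 comparisons. Their median log2 differences were 0.02, 0.01, -0.02 and -0.02. Over all genes tested, 0.813%, 19.1%, 3.65% and 10% were called in either direction, in the same order of comparisons. Of the mitochondrial ribosomal RNAs, 0 of 2 passed in any comparison. Of the mitochondrial transfer RNAs, 1 of 4 tested rose in the Vdr-/- nucleus accumbens (mt-Tw, 0.75) and 2 of 6 in the Vdr-/- VTA (mt-Tm, 2.49, and mt-Ti, 2.45, both above the filter through their morphine libraries alone), while 0 of 7 passed in wild-type mice in either region.

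Genes of proteins that bind or trim Y RNAs had small differences. Of 11 tested, 0 passed in wild-type mice in either region, 3 rose and 2 fell in the Vdr-/- nucleus accumbens, and 1 rose in the Vdr-/- VTA. Over all genes tested, 0.813% and 3.65% were called in either direction in the wild-type nucleus accumbens and VTA. In Vdr-/- mice 19.1% and 10% were called. Trove2, which encodes Ro60, had a log2 difference of 0.22 ± 0.07 in the Vdr-/- nucleus accumbens (adjusted p = 0.047), and Ssb, which encodes La, had 0.00. Parn, a 3′ exonuclease, fell by 0.38 there (adjusted p = 0.0049), Elavl4 rose by 0.38 (adjusted p = 0.016) and Ptbp1 by 0.29 (adjusted p = 0.022). Matr3 rose by 0.21 in the Vdr-/- VTA (adjusted p = 0.035). The median log2 difference of the 11 was 0.03, 0.04, 0.01 and 0.13 in the wild-type and Vdr-/- nucleus accumbens and the wild-type and Vdr-/- VTA.

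Other small structured RNAs were tested in the same comparisons. Of the named small RNAs, 4 were tested in 3 of the comparisons and 6 in the Vdr-/- VTA, and 1 passed, Vaultrc5, a vault RNA, in the Vdr-/- VTA (2.71 ± 0.54 on the log2 scale, means of 15.9 and 1.44 normalized counts after morphine and PBS). It was above the filter there through its morphine libraries alone and was not tested in the other 3 comparisons, so the call is a description. Rn7sk, which holds the elongation factor P-TEFb inactive, had log2 differences of -0.61, -0.09, -0.46 and 0.57 in the wild-type and Vdr-/- nucleus accumbens and the wild-type and Vdr-/- VTA. Rmrp had -0.07, 0.12, -0.04 and 1.27, and Rpph1, the RNA of ribonuclease P, had -0.49, 0.10, -0.19 and 0.95. None of these passed. Among all genes annotated as small nucleolar, small nuclear, small Cajal body or miscellaneous RNA, 1 of 19 tested rose in the wild-type nucleus accumbens, 5 of 22 in the Vdr-/- nucleus accumbens, 2 of 21 in the wild-type VTA and 5 of 29 in the Vdr-/- VTA, with 0 lower and medians of 0.17, 0.08, 0.13 and 0.57. Over all genes tested, 65 of 15749, 1573 of 15820, 286 of 16187 and 775 of 16364 were called higher. In either direction 0.813%, 19.1%, 3.65% and 10% were called. Gm22513 rose in all 4, by 1.22, 1.57, 1.66 and 3.45 on the log2 scale. Gm25939 rose by 1.74 in the Vdr-/- nucleus accumbens and 1.92 in the wild-type VTA, and Gm24407, which had the same mean and SD as Gm25939 over the PBS libraries there, by 1.68 in the Vdr-/- nucleus accumbens. In the Vdr-/- VTA Gm25939 and Gm24265 had differences of 3.40 and 3.26 and were above the filter through their morphine libraries alone, as were Gm24407 and Vaultrc5 there and Gm25291 in the Vdr-/- nucleus accumbens, so these counts are descriptions. Replication-dependent histone genes, whose messages mostly lack a poly(A) tail, gave 0 higher in each comparison and 0 of 12, 1 of 10, 0 of 14 and 2 of 15 lower. Those lower were Hist3h2ba, by a log2 difference of -0.59, in the Vdr-/- nucleus accumbens, and Hist1h1c and Hist1h2bc, by -1.41 and -0.75, in the Vdr-/- VTA. By annotated type, small nuclear RNAs took 23.6 to 47.2 CPM in PBS libraries and 51.5 to 140 in morphine libraries, with no overlap in any pair of groups (exact permutation p = 0.10, two-sided, the smallest that 3 mice against 3 can give). Other types had smaller differences. Miscellaneous RNAs, the type of the Y RNAs and counted without them, had morphine to PBS ratios of 0.695, 0.965, 0.910 and 1.51 in the same order of pairs. Small Cajal body RNAs had 0.934, 1.18, 1.22 and 1.40, and small nucleolar RNAs 1.10, 1.08, 1.20 and 1.18. For miscellaneous RNAs every morphine library lay below every PBS library in the wild-type nucleus accumbens, and their other pairs overlapped. For small nucleolar RNAs every morphine library lay above every PBS library in all pairs but the wild-type nucleus accumbens (exact permutation p = 0.10 each). Small Cajal body RNAs did so in the Vdr-/- VTA alone (exact permutation p = 0.10). Genes shorter than 200 bases, the 7 transcripts left out, took 754 ± 104 CPM after PBS and 926 ± 87.6 after morphine in the wild-type nucleus accumbens (exact permutation p = 0.10). The other 3 pairs overlapped, at 1432 ± 374 and 1834 ± 1403 in the Vdr-/- nucleus accumbens (exact p = 1.0), 777 ± 214 and 1180 ± 423 in the wild-type VTA (exact p = 0.30) and 2385 ± 430 and 2959 ± 1701 in the Vdr-/- VTA (exact p = 0.60). In each library 1 gene held 212 to 3196 CPM of this. Without it, the share was 369 to 503 in PBS libraries and 514 to 1091 in morphine libraries, and the morphine libraries lay above the PBS libraries in all 4 pairs, by ratios of means of 1.41, 1.66, 1.69 and 2.22 (exact permutation p = 0.10 each). The part of a difference in short fragments between the libraries in the values of the Y RNAs was not tested.

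The genotypes were compared within each injection and region, a contrast that did not choose the 7 transcripts, although it uses the same libraries. A difference of diet would go with genotype and cannot be told apart from it. All p-values measure the spread between the mice of a group. No difference between Vdr-/- and wild-type mice passed the test for any of them. After PBS the 5 copies were tested and the 2 Y RNAs fell below the filter, and 0 of 5 were called in the nucleus accumbens, where 0.0690% of all genes were called, and 0 of 5 in the VTA, where 0.390% were. After morphine 0 of 7 were called in the nucleus accumbens (0.192% of all genes) and 0 of 7 in the VTA (0.0624%). The count was 0 with edgeR, with DESeq2 and at an unadjusted p under 0.05 too. The smallest adjusted p of a member was 0.88, 0.65, 0.80 and 0.88 in the nucleus accumbens after PBS, the VTA after PBS, the nucleus accumbens after morphine and the VTA after morphine (limma). For Gm10925 the log2 difference, Vdr-/- minus wild-type, was -0.03 (95% interval -0.54 to 0.48) and -0.09 (-0.50 to 0.32) after PBS in the nucleus accumbens and VTA, and -0.43 (-1.26 to 0.39) and -0.12 (-1.22 to 0.98) after morphine. For Rny3 after morphine it was 0.03 (-1.50 to 1.56) in the nucleus accumbens and 0.46 (-1.23 to 2.16) in the VTA, and for Rny1 0.06 (-1.31 to 1.44) and 0.28 (-1.61 to 2.17). The intervals were wider after morphine than after PBS for all 5 copies, and a p above the threshold does not show that the genotypes were alike. Exact permutation tests of CPM gave p values between 0.20 and 1.0 over the 28 comparisons, where 0.10 is the smallest they allow. The level of the copies against mitochondrial reads gave exact permutation p values of 0.60 and 0.60 in the nucleus accumbens and 0.70 and 1.0 in the VTA, after PBS and after morphine. No contrast of the genotype difference between the regions passed for the 5 copies after PBS (smallest adjusted p = 0.96) or for the 7 transcripts after morphine (smallest adjusted p = 1.0, limma).

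After PBS the copies were slightly higher in the nucleus accumbens than in the VTA, where the 6 mice gave 14.3 ± 1.27 and 11.7 ± 0.203 CPM on the 5 copies (SD), higher in the nucleus accumbens in 6 of 6 mice. The exact sign permutation test over mice gave p = 0.031, the smallest that 6 mice allow, and 0.28 with Benjamini-Hochberg adjustment over 18 such tests. After morphine the values were 162 ± 75.1 and 144 ± 57.6, higher in the nucleus accumbens in 3 of 6 mice (exact p = 0.69). The Y RNAs showed the opposite order after morphine, with 16.7 ± 11.7 CPM in the VTA and 10.5 ± 7.49 in the nucleus accumbens, lower in the nucleus accumbens in 5 of 6 mice (exact p = 0.13, adjusted 0.38). In the fit over all 24 libraries without pairing, 0 of 7 transcripts passed the test between the regions, where 73.0% of 16147 genes did. With the mouse as a block, 71.5% of all genes were called and 4 of 7 transcripts, all higher in the nucleus accumbens: Gm28439 by 0.41 ± 0.12 on the log2 scale (adjusted p = 0.0074), Gm28661 by 0.29 ± 0.10 (adjusted p = 0.013), Gm10925 by 0.29 ± 0.10 (adjusted p = 0.015) and Gm29216 by 0.26 ± 0.11 (adjusted p = 0.041). Gm28437, at 0.19 ± 0.12, and both Y RNAs did not pass (limma). Both Y RNAs were above the filter in the region fits through their morphine libraries alone, so their result there rests on those libraries. In the exact tests over mice within an injection 0 of the 7 passed after adjustment (smallest adjusted p = 0.28), and after morphine Gm28439 and Gm29216 were higher in the nucleus accumbens in 3 of 6 mice. Without the block, Gm28439 passed when the nucleus accumbens library of mouse 2.0 (adjusted p = 0.011) or the VTA library of mouse 2.2 (adjusted p = 0.048) was left out.

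Among the morphine mice the level of the copies and that of the Y RNAs varied together. Mouse 2.0 had the lowest summed CPM on the copies in both regions, 53.5 in the VTA and 63.1 in the nucleus accumbens, and the lowest on the Y RNAs, 3.47 and 2.38. The highest were 287 and 20.7 in the nucleus accumbens (mouse 1.0), and 208 and 31.6 in the VTA (mouse 2.2). Across the 6 mice the log2 levels of the copies and the Y RNAs had Pearson's r = 0.94 (exact permutation p = 0.0028) and Spearman's rho = 1.0 (exact p = 0.0028) in the nucleus accumbens, and r = 0.89 (exact p = 0.025) and rho = 0.94 (exact p = 0.017) in the VTA. With adjustment over the 4 relations computed, p was 0.011 for both in the nucleus accumbens and 0.033 for both in the VTA. Without mice 2.0 and 1.0, the farthest from the median, r was 0.998 in the nucleus accumbens, and without mice 2.0 and 1.2 it was 0.58 in the VTA, so there the relation rests on those mice. The copies of a mouse in one region and in the other gave r = 0.82 (exact p = 0.083) and rho = 0.66 (exact p = 0.18), and the Y RNAs gave r = 0.88 (exact p = 0.025, adjusted 0.033) and rho = 0.83 (exact p = 0.058, adjusted 0.078). Each genotype has 3 mice, too few for a value within genotype, and both sums of a point come from the same library and its depth. Small nuclear RNAs varied between these mice too. In the nucleus accumbens they took 82.9, 67.9 and 57.4 CPM in mice 1.0, 1.1 and 1.2. Mice 2.0, 2.1 and 2.2 had 57.6, 83.9 and 123 there. In the VTA the values were 67.2, 51.5 and 70.1, and then 55.3, 130 and 140. Whether the relation is particular to the 7 transcripts was not tested.

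**Figure D5:**
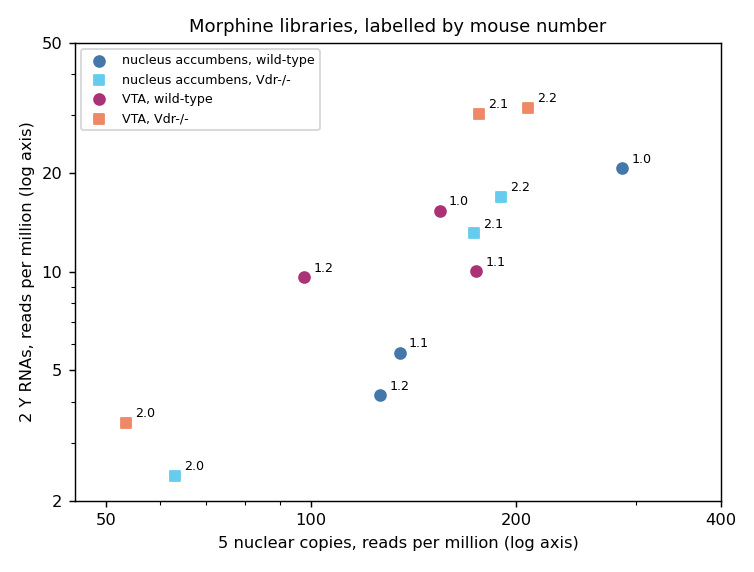
CPM on the 5 copies (x, log axis) and on the 2 Y RNAs (y, log axis) in the 12 morphine libraries, labelled by mouse number, with 1 symbol for each region and genotype. Mouse 2.0 lies at the lower left in both regions, and at a like level of the copies the VTA libraries of mice 2.1 and 2.2 lie highest on the y axis.

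Over all 24 libraries, the genes whose log2 levels were most like the mean of the 2 Y RNAs were Gm28438, Gm4076, mt-Co2, Gm10222 and Gm6210, with Pearson's r from 0.96 to 0.97 among 16140 genes. Those most like the mean of the 5 copies were mt-Co2, mt-Co3, Gm13340, Gm4076 and Gm10222, with r from 0.97 to 0.99. The 24 points share 2 injections that differ widely in all of these, so the values describe that split as much as any likeness within it.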

How the data were processed

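The authors removed adapters with Trimmomatic 0.36, mapped 101-base paired-end reads with STAR 2.4.2a to GRCm38 and counted reads per gene with STAR, which counts only reads that map to 1 place. The strand setting is not given in the sources used here, although the kit marks strand. They deposited normalized counts (signal: reads over DESeq2 size factors) in 8 tables of 2 groups each. Every value was a whole number of reads times 1 factor per library (100% whole, tolerance 0.01), so the reads were recovered. The VTA morphine tables lack wild-type PBS mouse 3 and Vdr-/- PBS mouse 8. Reads of members come from all 24 libraries.

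Groups came from the sample labels. The 7 transcripts, the lists and the tests were chosen with earlier results of these data known. Genes with a mean of at least 10 entered limma 3.58.1 as log2 of the value plus 1 (trend, two-sided, Benjamini-Hochberg, threshold 0.05) within each table, and between regions on reads scaled over all 24 libraries. Fold changes on this scale understate those of low genes. edgeR 4.0.16 and DESeq2 1.42.0 were alternatives on recovered reads, R was 4.3.3, and single values were tested exactly with scipy 1.17.1. The fits were tested on simulated data. Copies were aligned with BLAST+ 2.17.0 to GENCODE M21 transcripts. No genome was used, so the list of other mitochondrial pseudogenes rests on alignment to mitochondrial transcripts. Both regions of a mouse share its number, and the correlation of their deviations from the group means over genes lay between -0.067 and 0.17 in the 12 mice. Genes named from each list were the 3 with the widest difference among those past the threshold, and the genes that a member copies. Rn7sk, Rmrp, Rpph1, Ssb, Trove2 and Gm25291 were named after their values were seen. Samples of a group are separate mice.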

Additional observations from a re-analysis of the deposited data

How the results depend on the processing

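The direction of each member's difference between morphine and PBS was the same under every alternative run: pseudocounts of 0.5 and 5, mean minimums of 1 and 50 where the member was kept, edgeR, DESeq2, TMM scaling, all 3 PBS mice in the VTA and each library left out. The members were chosen on this contrast and their libraries did not overlap in it, so this agreement is no evidence for the difference. The fitted size for the Y RNAs, which is no bound, moved most, for example from 7.37 to 10.9 with edgeR and to 5.10 with a pseudocount of 5 for Rny3 in the Vdr-/- VTA.

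The number of genes called after morphine was 128 in the wild-type nucleus accumbens, against 514 with DESeq2, and 591 in the wild-type VTA, against 1423 with DESeq2 and 2001 with all 3 PBS mice. Between genotypes it was 11, 30, 64 and 10 in the nucleus accumbens after PBS, after morphine, in the VTA after PBS and after morphine, against 64, 52, 274 and 94 with DESeq2. The mitochondrial genes called in the VTA went from 5 to 9 with DESeq2 in wild-type mice, and from 7 to 11 in Vdr-/- mice with a mean minimum of 1, edgeR, DESeq2 and TMM scaling. Those called lower went from 0 to 4 and from 2 to 6, and those called higher stayed at 5. With the mouse as a replicate block, the members called between regions went from 0 to 4, and the genes called from 11791 to 11546.

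The causes of these differences were not tested. Leaving out 1 library at a time, the genes called after morphine ranged from 0 to 627 and 1566 to 3133 in the nucleus accumbens of wild-type and Vdr-/- mice and from 0 to 2817 and 0 to 2272 in the VTA. Between genotypes they ranged from 2 to 28, 14 to 47, 13 to 370 and 5 to 49, in the order above. The mitochondrial genes called ranged from 0 to 5, 5 to 8, 0 to 7 and 0 to 11, and the members called between regions from 0 to 1. Arms left with 1 library borrow their spread from the other arm. Ratios of copies to mitochondrial reads, and of short-gene shares with a limit of 400 bases or 1 library left out, moved by less than the spread between mice. Without the short gene with most reads, an alternative chosen after seeing the data, the short-gene ratio of morphine to PBS went from 1.24 to 2.22 in the Vdr-/- VTA, and was 1.41, 1.66 and 1.69 in the other 3 pairs, against 1.23, 1.28 and 1.52. The Y RNAs are limited by the depth of the PBS libraries, and the number called among the members between genotypes was 0 in every setting.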
